A study of Mus musculus with 1824 samples.

Results

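The Sprouty, Spred, Dusp and Etv feedback genes of the FGF-ERK pathway were examined in single cells of mouse chimaeric embryos, as 9 genes of the 55487 genes counted. They were *Spry1*, *Spry2*, *Spry4*, *Spred1*, *Spred2*, *Dusp4*, *Dusp6*, *Etv4* and *Etv5*, found by matching gene identifiers to these symbols. The set was chosen by measured values, because a lower *Spry2* level at E8.5 than at E7.5 had been seen in the same cells. Stage levels of the 9 genes are therefore a description, given with no test, and the question asked was whether the rest of the family was lower too.

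FGF ligands bind receptor tyrosine kinases and switch on RAS, RAF, MEK and ERK. ERK then induces genes that damp the same signal. Sprouty proteins act at the receptor and RAS level, Spred proteins bring neurofibromin to RAS, DUSP4 and DUSP6 are phosphatases that remove phosphate from ERK, and ETV4 and ETV5 are ETS transcription factors whose genes are widely used as readouts of FGF signalling. In the gastrulating mouse embryo the pathway is needed for mesoderm to leave the primitive streak, and it later patterns the tail end of the body axis.

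RNA was read by Smart-seq2 from 1824 wells on 19 plates of 96 wells. The E7.5 wells lay on 11 plates: 1 chimera plate, 4 plates named for *Tet*-tko chimera embryos 1, 2, 4 and 5, and 6 plates named by sequencing lane. The E8.5 wells lay on 8 plates with no embryo named, so E8.5 counts as 1 sample. The spread over plates holds technical differences, the mix of sorted cells and, at E7.5, differences between embryos, which cannot be told apart. All wells share the labelled strain CD1 and the chimaera design, in which ESCs of a single *Tet* triple knockout line, carrying H2B-tdTomato under the CAG promoter, were injected into wild-type C57BL/6J blastocysts. The methods describe pooled chimaeric embryos, a split into host and knockout cells by tdTomato, and sorting on KDR and CD41. The labels give neither genotype nor gate, so host and knockout cells are summed here, and the sort can set the mix of cells on a plate. Some cells went through scNMT-seq with a GpC methylase step and others through RNA-seq alone, so stage, plate set and library preparation cannot be told apart. After filtering, 1634 of the 1824 wells were kept, 57 to 94 on each E7.5 plate and 76 to 92 on each E8.5 plate, with a median of 742762 reads per E7.5 cell, 575073 reads per E8.5 cell and plate medians from 224956 to 1699480 reads.

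Levels are CPM: the reads of a gene summed over the kept cells, per 1e6 of all their reads. *Spry2* (ENSMUSG00000022114, GRCm38 chr14:105891947-105896819, minus strand) and *Spred1*, the members that were lower at E8.5 in every cluster of cells compared, are shown by the 250 bases before their annotated starts (RefSeq, GRCm38.p6; *Spry2* chr14:105896820-105897069, minus strand; *Spred1* chr2:117120821-117121070, plus strand). Capitals mark GGAA or its reverse complement TTCC, the core that ETS factors such as ETV4 and ETV5 recognise.
Spry2: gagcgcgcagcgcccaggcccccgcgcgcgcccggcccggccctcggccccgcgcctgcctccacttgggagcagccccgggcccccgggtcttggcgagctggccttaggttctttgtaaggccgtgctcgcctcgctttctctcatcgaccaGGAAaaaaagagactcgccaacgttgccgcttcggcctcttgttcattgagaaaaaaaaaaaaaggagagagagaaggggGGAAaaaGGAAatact
Spred1: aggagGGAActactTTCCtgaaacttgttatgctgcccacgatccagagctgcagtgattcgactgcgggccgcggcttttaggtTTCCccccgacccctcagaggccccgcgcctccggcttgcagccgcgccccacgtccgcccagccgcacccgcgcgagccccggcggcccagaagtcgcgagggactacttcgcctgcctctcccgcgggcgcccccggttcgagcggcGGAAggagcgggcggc
The core was found 3 times in the *Spry2* stretch and 4 times in that of *Spred1*, and 93.45% of all 32851 promoter stretches of this length hold it on either strand. No stretch of *Spry4*, *Dusp4* or *Etv4* was used, so those genes were not searched. The longer ETS motif CCGGAA, searched on both strands, always overlaps the core. It was in 0 of the 7 stretches used, which came from 6 members, against 12.03% of all stretches. These matches describe letters only.

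*Spry2*, an inhibitor of receptor tyrosine kinase signalling, had the lowest stage ratio of the family. Its 11 E7.5 plates ran from 38.6 to 154.1 CPM with a median of 92.99, and its 8 E8.5 plates from 0.247 to 11.03 CPM with a median of 4.18. Every E8.5 plate lay below every E7.5 plate, which 1.41% of the 9886 genes with 10 CPM in either stage also showed. Pooled, the level was 83.4 CPM at E7.5 (95% Poisson interval 82.77 to 84.002) and 3.97 CPM at E8.5 (3.79 to 4.15). The log2 ratio of E8.5 over E7.5 was −4.09, with 1 CPM added to each level. The intervals cover counting error only. It ranked as number 24 from the lowest of the 9886 genes, whose median log2 ratio was 0.077.

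In the pool fewer cells held a *Spry2* read at E8.5, and the median level of those that did was lower. With each cell thinned to 100000 reads, 82.5% of E7.5 cells held a *Spry2* read (95% Clopper-Pearson interval 79.97 to 84.9) and 15.7% of E8.5 cells (13.04 to 18.6). These intervals cover counting error only, and the plates spread more widely, with E7.5 plates between 40.9 and 98.9% and E8.5 plates between 3.26 and 43.9%. The plate shares overlapped, unlike the CPM: E8.5 plate 4, at 43.9%, lay above E7.5 lane plate 1, at 40.9%. Without thinning the shares were 89.1% and 31.8%. Among cells with a read, the median *Spry2* level was 71.005 CPM at E7.5 and 5.32 CPM at E8.5. At E8.5, 10 cells carried 40.5% of all *Spry2* reads, against 10.02% at E7.5.

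**Figure D1:**
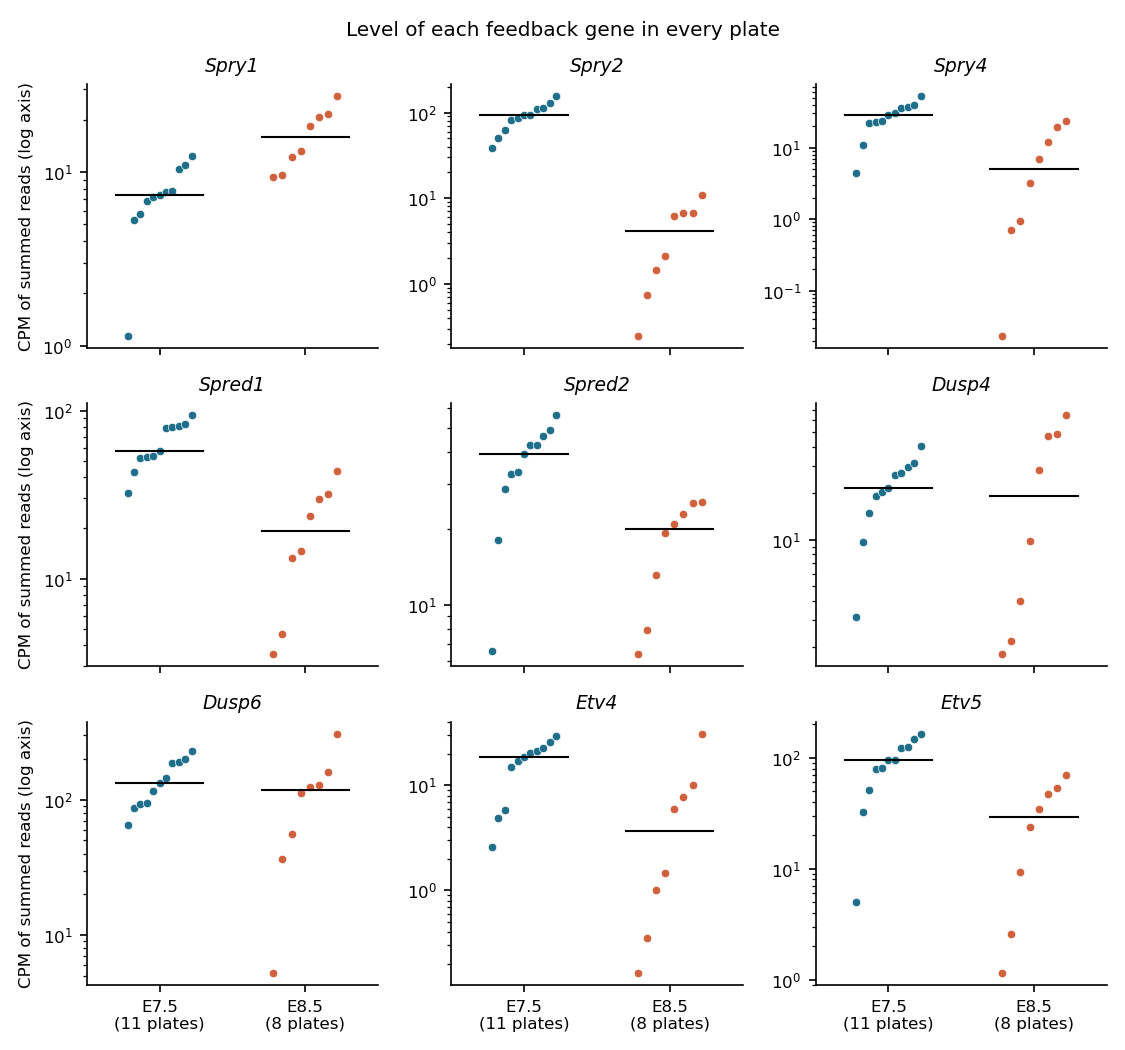
Level of each gene in every plate. The vertical axes show CPM of summed reads on log scales that differ between panels, each point is 1 plate (11 at E7.5, 8 at E8.5, ordered by level) and black lines are medians. *Spry2* has no overlap between the stages, *Spry1* is mostly higher at E8.5, and the other genes overlap.

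The other Sprouty genes overlapped between the stages. *Spry1* ran from 1.14 to 12.4 CPM over the E7.5 plates (median 7.37) and from 9.41 to 27.3 CPM over the E8.5 plates (median 15.8), with 5 of 8 E8.5 plates above the highest E7.5 plate. Its pooled log2 ratio was 1.04, the only member at 1 or more, where 6.99% of the tested genes lay. *Spry4* ran from 4.40 to 51.9 CPM at E7.5 (median 28.9) and from 0.0234 to 23.3 CPM at E8.5 (median 5.09), with 4 E8.5 plates inside the E7.5 range and a pooled log2 ratio of −1.49. Of the Spred genes, *Spred1* came nearest to *Spry2*: it ran from 32.2 to 94.01 CPM at E7.5 (median 57.7), and its E8.5 plates lay between 3.53 and 43.8 CPM (median 19.07). Of its E8.5 plates 7 of 8 lay below the lowest E7.5 plate, and its log2 ratio was −1.79. *Spred2* overlapped more, at 6.56 to 56.2 CPM (median 39.4) and 6.37 to 25.4 CPM (median 20.02), with a log2 ratio of −0.94.

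The phosphatase genes had similar pooled levels at both stages and wide plate ranges. *Dusp6* had 65.2 to 228.2 CPM over the E7.5 plates (median 133.1) and 5.26 to 306.05 CPM over the E8.5 plates (median 117.9), a log2 ratio of −0.30. *Dusp4* had 3.13 to 40.7 CPM (median 21.7) and 1.78 to 64.9 CPM (median 19.2), a log2 ratio of 0.16. The highest plate for both was an E8.5 plate, plate 3. The ETS genes were lower in the pool with wide overlap. *Etv5* went from 4.96 to 164.7 CPM (median 94.8) to 1.14 to 70.3 CPM (median 29.3), log2 ratio −1.39. *Etv4* went from 2.60 to 29.3 CPM (median 18.5) to 0.163 to 30.98 CPM (median 3.71), log2 ratio −0.90. In all, 7 of the 9 genes had a log2 ratio under 0. The share of tested genes under 0 was not counted, and their median log2 ratio was 0.077. Of the 9 genes, 4 had −1 or less, where 8.23% of the tested genes lay. No member had every E8.5 plate above every E7.5 plate, as 0.384% of tested genes did. Over the 9 genes the median of these ratios was −0.94, and −0.92 without *Spry2*. Lane plate 1, which held 60 of the 64 erythroid-like E7.5 cells, was the lowest E7.5 plate for 9 of 9 members. Fewer cells of a type and less RNA per cell cannot be told apart in such plate sums.

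Per kilobase of exon, *Dusp6* (43.7 CPM per kb) and *Spry2* (39.95 CPM per kb) had the highest levels of the family at E7.5, ahead of *Etv5* at 20.2 CPM per kb, and *Spry1* had the lowest at 2.45. At E8.5 *Dusp6* was still first at 35.4 CPM per kb, while *Spry2* was next to last at 1.90, just above *Spry4* at 1.74. At both stages the plate ranges of all 8 pairs of neighbours in this order overlapped. These ranges do not pair the genes by plate, so they cannot show whether neighbours differed on the same plates.

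The kinds of cells on the plates differ between stages, so the members were followed within kinds of cells. Cells were clustered on genes other than the members and the other pathway genes, and 24 of 25 clusters took a name from marker genes ("-like"). In the plot of *Spry2* by class, epiblast-like cells had the highest E7.5 level of the named classes, 172.3 CPM with a read in 100% of 79 thinned cells, and erythroid-like cells the lowest, 8.17 CPM. The unnamed cluster, with 81 E7.5 cells led by *Fst*, *Nanog* and *Pou5f1*, had 173.4 CPM. Nascent mesoderm-like cells had 123.9 CPM, primitive streak-like cells 79.005 CPM, extraembryonic mesoderm-like cells 64.4 CPM and extraembryonic ectoderm-like cells 35.1 CPM. At E8.5 the highest class, surface ectoderm and amnion-like cells, reached 13.5 CPM.

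**Figure D2:**
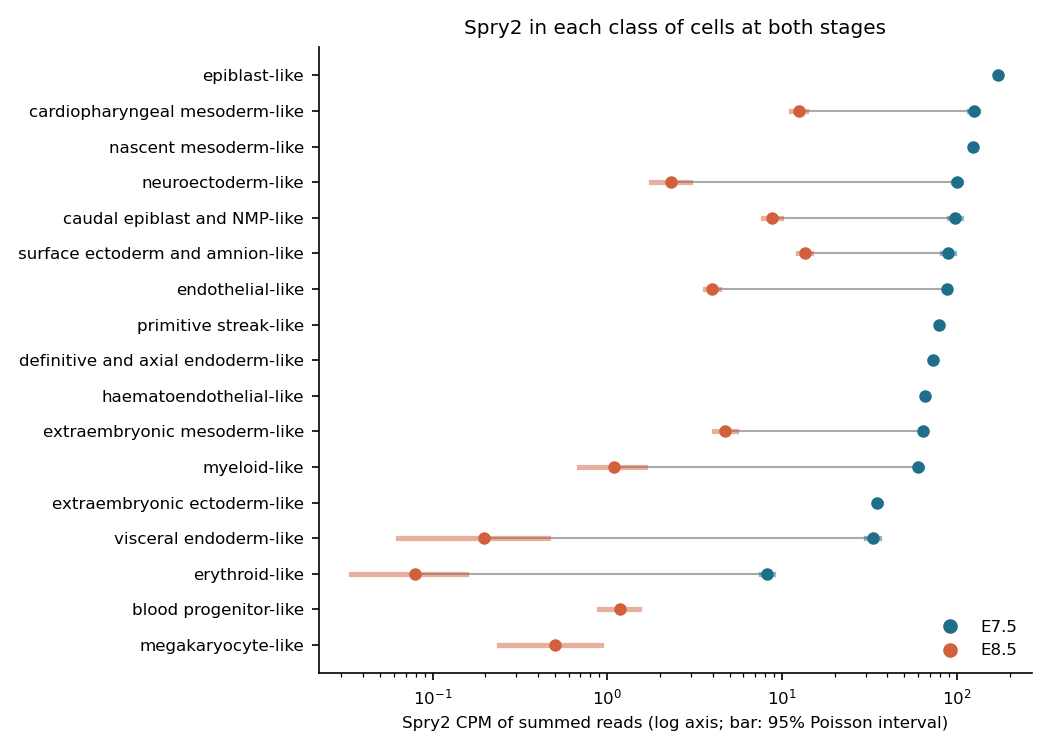
*Spry2* level in each class of cells. The horizontal axis shows CPM of summed reads on a log scale, points are pooled levels at E7.5 and E8.5 for classes with 5 cells or more, bars are 95% Poisson intervals of counting error, and grey lines join the stages of 1 class. In each of the 9 classes seen at both stages the E8.5 point lies to the left.

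In caudal epiblast and NMP-like cells, which carry FGF signalling at the tail end of the axis, *Spry2* went from 97.8 CPM (12 cells) to 8.77 CPM (35 cells). The pooled E7.5 and E8.5 levels of the same cells were 160.4 and 158.9 CPM for *Etv5*, 206.8 and 226.6 CPM for *Dusp6*, 113.2 and 134.1 CPM for *Dusp4* and 91.6 and 72.1 CPM for *Etv4*, and they had the highest level of *Dusp4*, *Etv4* and *Spry4* of the named classes at both stages. *Spry4* there was at 116.03 and 44.5 CPM. These pools rest on 2 plates with 5 such cells at each stage, which differed widely. *Dusp6* was at 40.3 and 309.5 CPM on the E7.5 plates and at 309.98 and 181.6 CPM on the E8.5 plates, and *Etv5* at 100.8 and 197.1 CPM and at 73.8 and 187.04 CPM. *Etv4* was at 29.7 and 129.8 CPM and at 13.6 and 88.1 CPM. The plates of the stages overlapped for these 3 genes, so leaving out 1 plate sets whether their levels are close. *Spry2* was at 49.3 and 127.7 CPM on the E7.5 plates and at 0.787 and 11.01 CPM on the E8.5 plates, with no overlap.

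In endothelial-like cells *Spry2* went from 87.7 CPM to 3.96 CPM, a log2 ratio of −4.16. The E7.5 plates with 5 such cells ran from 32.4 to 219.7 CPM and the E8.5 plates from 2.21 to 8.52 CPM, 3 plates each. *Dusp6* was at 258.9 and 212.9 CPM and *Spred2* at 23.4 and 22.2 CPM in the same cells, while *Spry1* went from 2.41 to 14.5 CPM. The endothelial-like cells lay partly in different clusters by stage, with 1 E7.5 and 78 E8.5 cells in cluster 5. In the 2 clusters shared by the stages *Spry1* went from 3.37 to 7.98 CPM and from 1.42 to 2.74 CPM, log2 ratios of 1.04 and 0.63, and *Spry2* from 39.9 to 5.02 CPM and from 146.7 to 5.27 CPM. Of the 8 members with 10 CPM there, 2 (*Spry2* and *Etv5*, −1.31) had a log2 ratio of −1 or less, where 9.96% of all genes lay. In extraembryonic mesoderm-like cells *Spry2* went from 64.4 to 4.74 CPM and *Spred1* from 100.9 to 26.97 CPM, the 2 of 8 members at −1 or less against 12.9% of all genes. The E7.5 and E8.5 cells of this class lay mostly in different clusters (9 and 16 against 15 and 24). In myeloid-like cells *Spry2* (59.99 to 1.09 CPM) and *Spred1* (69.4 to 22.8 CPM) were the 2 of 4 members at −1 or less, against 14.6% of genes. In visceral endoderm-like cells 6 of 9 members were at −1 or less, against 22.1% of genes. *Spry2* there went from 33.1 to 0.196 CPM, the latter resting on 5 reads, while *Dusp6* went from 63.7 to 134.6 CPM and *Etv5* from 110.6 to 83.95 CPM.

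Erythroid-like cells were low for nearly the whole family. At E7.5 they had 8.17 CPM of *Spry2*, 15.7 CPM of *Spred1* and 4.12 CPM or less of every other member. At E8.5 *Spry2* was at 0.079 CPM (8 reads, with a read in 0.909% of thinned cells against 23.4% at E7.5), and *Spry1*, at 6.59 CPM, was the highest member. The stages lay in different clusters (10 against 11 and 18). Blood progenitor-like cells of E8.5 had 13.99 CPM of *Spry1* and 1.18 CPM of *Spry2*.

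Cells of both stages that fell into the same cluster gave the closest match of kind. There were 10 such clusters with 5 cells or more of each stage. *Spry2* had a log2 ratio between −4.93 and −2.64 in them, with a median of −3.85, so it was at −1 or less in 10 of 10, which 0.678% of the 9886 genes showed. *Spred1* was lower at E8.5 in 10 of 10 clusters (−2.46 to −0.08, median −1.19), which 5.52% of the genes showed. *Etv5* was lower in 9 of 10 (median −0.37), a pattern whose share over all genes was not counted. *Spry1* was lower in 1 of 10 and had a median of 0.81. *Dusp6*, *Dusp4* and *Spred2* had medians of 0.28, 0.10 and 0.08, and *Spry4* and *Etv4* −1.09 and −0.53. *Spry4* ranged from −3.10 to 1.29. *Spry4* and *Spred1* were each at −1 or less in 5 of 10 clusters and *Etv4* in 4 of 10. The share of all genes with such counts was not determined.

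**Figure D3:**
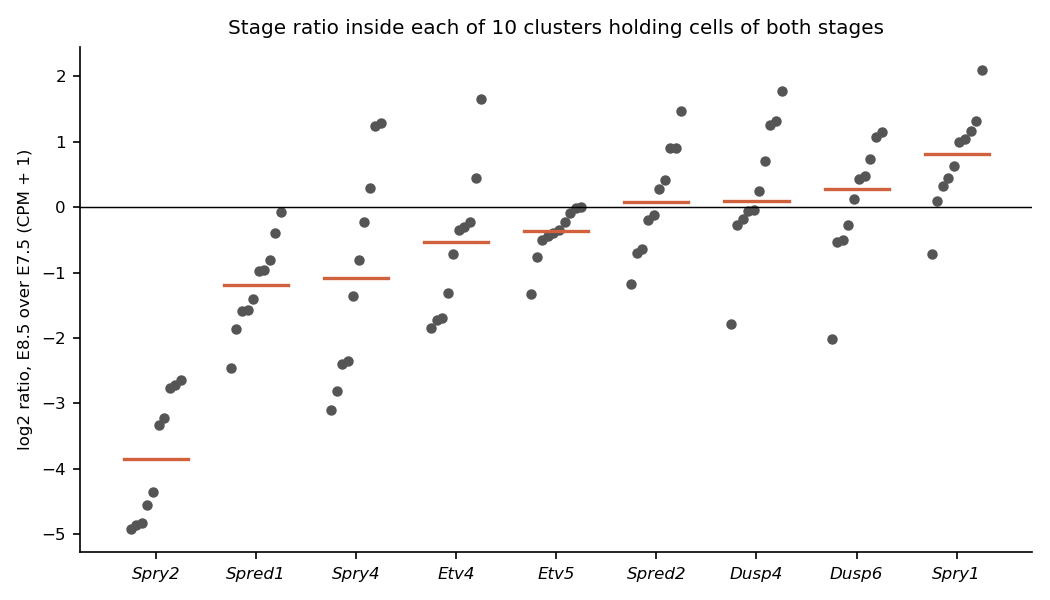
Stage ratio of each gene within single clusters. The vertical axis shows the log2 ratio of CPM + 1 at E8.5 over E7.5, each grey point is 1 of 10 clusters with 5 cells or more of both stages, and orange lines are medians. *Spry2* lies at −2.64 or lower in every cluster and *Spred1* lies below 0. The other genes have points on both sides of 0, with *Spry4* between −3.10 and 1.29.

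The sequence features of the 67 genes at −1 or less in all 10 clusters were looked at after their values were seen. Of these genes, 20 (29.9%) were annotated pseudogenes, against 2.90% of the tested genes. Counting windows of 75 bases, the read length, 39 of the 67 (58.2%) shared at least 10% of their transcript windows with another gene, against 8.29% of tested genes. *Spry2* itself and 7 further members shared no window with another annotated transcript, and *Etv5* shared 18.7%. Among the 6721 protein-coding genes with no shared window, 15 (0.223%) were at −1 or less in all clusters, and *Spry2* had the lowest pooled ratio of the 15. Of these 15 genes, 7 (46.7%) had at least 80% of their exon length in 1 stretch, against 7.54% of the 6721. *Spry2* had 88.9% in 1 stretch and *Spry4* 94.8%. The part of read sharing or gene structure in the *Spry2* result was not tested. Whether both stages were counted with the same settings was not tested either, which bears on every stage ratio given here.

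**Figure D4:**
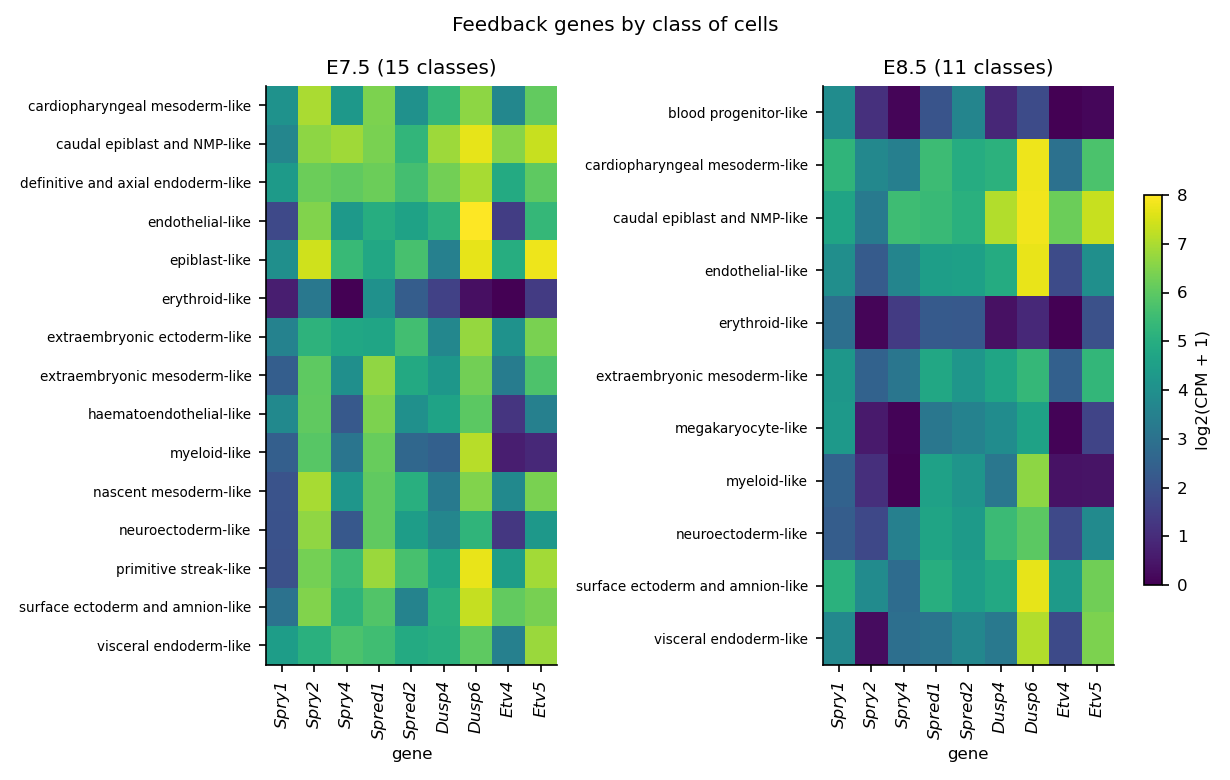
Level of each member in each class of cells. Columns are genes, rows are named classes with 5 cells or more (15 at E7.5, 11 at E8.5), and colour is log2(CPM + 1). The *Spry2* column is bright at E7.5 in all classes but the erythroid-like one and darker at E8.5, while the *Dusp6* column is bright at both stages in most classes and dark in the erythroid-like and blood progenitor-like ones.

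Within E7.5 the named embryos allowed a test over animals that used no stage contrast. Embryos 1, 2 and 4 held 5 cells or more of epiblast-like, streak-like and extraembryonic mesoderm-like cells. In the embryo tests "streak-like" joins the primitive streak-like and nascent mesoderm-like classes. Embryos 1, 2 and 4 held 20, 28 and 6 epiblast-like cells and 36, 31 and 7 streak-like cells. They held 9, 12 and 6 extraembryonic mesoderm-like cells, so the sums of embryo 4 rest on few cells. Sums per embryo were tested with edgeR's quasi-likelihood test with the embryo as a block. The p-values were Benjamini-Hochberg adjusted over all genes, and genes were called at 1% and an absolute log2 fold change of 1. From epiblast to streak, *Spred1* was at 25.9, 29.2 and 70.7 CPM in the epiblast-like cells of embryos 1, 2 and 4 and at 121.4, 136.2 and 132.9 CPM in their streak-like cells. It was higher in 3 of 3 embryos with no overlap, by 1.80 ± 0.33 on the log2 scale (edgeR adjusted p = 0.0554). Each value after ± is an approximate SE: the absolute log2 fold change over the square root of the test's F statistic. *Etv5* was at 184.4, 255.01 and 145.3 CPM in epiblast-like cells and at 99.7, 126.1 and 117.7 CPM in streak-like cells, lower in 3 of 3 embryos with a log2 fold change of −0.75 ± 0.17 (edgeR adjusted p = 0.0953). *Spry2* was at 255.6, 176.4 and 95.4 CPM and at 109.7, 61.8 and 115.6 CPM, lower in 2 of 3 embryos (−0.85 ± 0.35, edgeR adjusted p = 0.285). *Spry1* was at 20.1, 14.9 and 14.7 CPM and at 2.77, 5.49 and 7.74 CPM, lower in 3 of 3 embryos (−1.75 ± 0.60, edgeR adjusted p = 0.205). *Dusp6* moved by −0.16 ± 0.15 and *Spred2* by −0.04 ± 0.22. None of the 9 members passed, where 0.461% of the 14955 genes tested were called higher and 0.381% lower. An unadjusted p under 0.05 was found for 3 of 9 members and for 18.5% of all genes. Without embryo 4, which is also the fit with 10 cells per class, *Spred1* passed (2.27, edgeR adjusted p = 0.00927).

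From epiblast to extraembryonic mesoderm, *Etv5* was lower in 3 of 3 embryos, at 37.3, 58.2 and 42.2 CPM in the mesoderm-like cells, with a log2 fold change of −2.10 ± 0.20 (edgeR adjusted p = 0.0120). *Dusp6* was at 189.1, 252.3 and 123.5 CPM in epiblast-like cells and at 82.9, 85.1 and 63.5 CPM in the mesoderm-like cells, a difference of −1.27 ± 0.19 (edgeR adjusted p = 0.0331). *Spry4* was at 37.7, 56.9 and 18.2 CPM and at 1.11, 9.53 and 0.768 CPM (−3.98 ± 0.73, edgeR adjusted p = 0.0565), and *Spry2* went to 50.9, 67.6 and 48.4 CPM (−1.59 ± 0.32, edgeR adjusted p = 0.0662). *Spred1* was again higher in 3 of 3 embryos, at 72.2, 89.7 and 97.5 CPM (1.17 ± 0.32, edgeR adjusted p = 0.130). *Spry1* had the lowest fold change of the members, at 0, 0.590 and 1.02 CPM in the mesoderm-like cells (0, 7 and 4 reads), with a fitted log2 value of −5.30 ± 1.35 (edgeR adjusted p = 0.112) that depends on the prior count. *Etv4* went from 24.02, 27.8 and 32.3 CPM to 14.9, 1.94 and 11.3 CPM (−1.98 ± 0.76, edgeR adjusted p = 0.243). The groups of *Spry1*, *Spry2*, *Spry4*, *Spred1*, *Dusp6*, *Etv4* and *Etv5* did not overlap. The share of all tested genes without overlap was not counted in either comparison, so this is not read as a trait of the family. None of the 9 passed the 1% limit, where 0.427% of the 13111 genes tested were called higher and 0.137% lower. An unadjusted p under 0.05 was found for 8 of 9 members and for 19.4% of all genes. *Etv5* passed without a low-count filter (−2.17, edgeR adjusted p = 0.00119) and with no replicate block (−2.11, edgeR adjusted p = 0.00419). With DESeq2 and the same block, 1 member, *Spred1*, passed in the first comparison (adjusted p = 9.49e-07), where 8.23% of all genes did, and 5 members, *Spry1*, *Spry2*, *Spry4*, *Dusp6* and *Etv5*, passed in the second (adjusted p between 4.57e-15 and 3.57e-05), where 9.39% of all genes did.

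**Figure D5:**
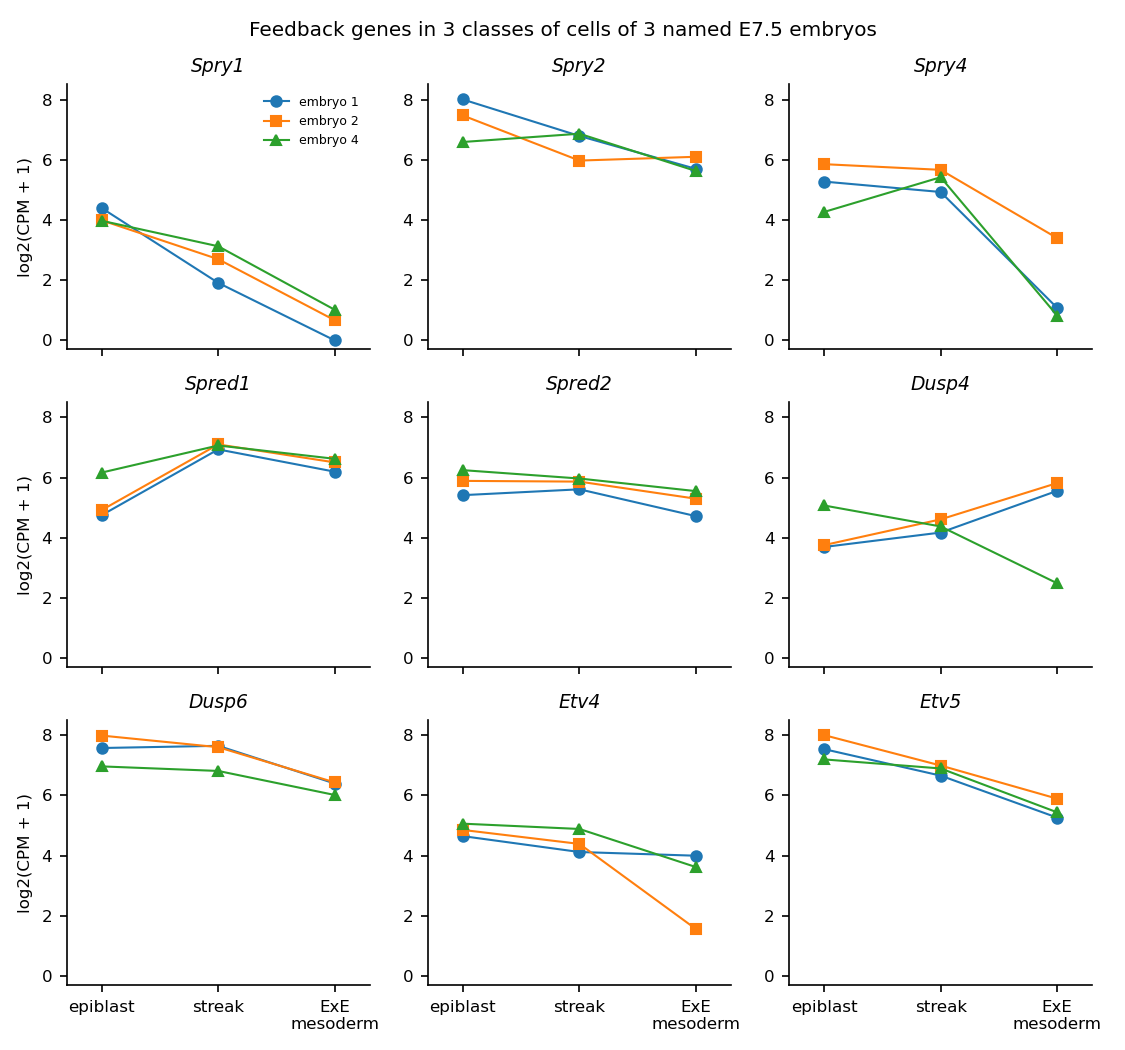
Feedback genes in 3 classes of cells of named E7.5 embryos. The vertical axis shows log2(CPM + 1) of summed reads and each line is embryo 1, 2 or 4. The horizontal axis shows the class: epiblast-like, primitive streak-like joined with nascent mesoderm-like ("streak"), and extraembryonic mesoderm-like. *Spred1* is lowest in epiblast-like cells and *Etv5* is lowest in extraembryonic mesoderm-like cells in each of the 3 embryos.

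Extraembryonic ectoderm-like cells, which receive FGF4 from the epiblast, could be set beside epiblast-like cells in embryo 4 only (50 and 6 cells), with no test. There *Spry2* was at 30.98 CPM against 95.4 CPM, *Dusp6* at 97.1 against 123.5 CPM, and *Spry4* at 34.3 against 18.2 CPM.

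The rest of the pathway is given here as pooled log2 ratios between stages with no test. Of all tested genes, 8.23% were at −1 or less and 6.99% at 1 or more. The lists are short, so their counts are not read as traits of the lists. Of the FGF ligands with 10 CPM, 3 of 5 were at −1 or less, led by *Fgf5*, an epiblast ligand (59.9 to 0.535 CPM, −5.31), and *Fgf8* (41.3 to 9.66 CPM, −1.99). *Fgf3* was at −0.54 and *Fgf15* at −0.46. Of 4 receptors and partners 1 was at 1 or more, *Fgfr3* (1.44), followed by *Flrt3* (0.36), and none was at −1 or less, with *Fgfr2* at −0.54 and *Fgfr1* at −0.50. None of the 7 other receptor tyrosine kinases reached 1 in either direction, from *Pdgfra* at −0.90 and *Kdr* at 0.09 to *Kit* at 0.64 and *Flt4*, a lymphatic and endothelial VEGF receptor, at 0.91. In the RAS-ERK cascade 1 of 19 genes was at −1 or less: *Braf*, a RAF kinase, went from 186.96 to 46.1 CPM (−1.998), with all E8.5 plates below all E7.5 plates. *Nras* was at −0.93, *Hras* at 0.81 and *Ksr1* at 0.85.

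Of the other feedback genes, 2 of 5 were at −1 or less, *Etv1* (−2.45), an ETS factor close to ETV4 and ETV5, and *Il17rd* (−1.31), which encodes the receptor antagonist SEF. *Dusp7* was at −0.51 and *Dusp5* at −0.34. Of 9 early-response genes, which ERK switches on within minutes, none was at −1 or less and 2 were at 1 or more, *Ier3* (1.15) and *Phlda1* (1.09). The lowest of the 9 were *Fosb* (−0.67) and *Egr1* (−0.61). Beside the counts in these lists, 8.23% of all tested genes were at −1 or less and 6.99% at 1 or more. Of 5 FGF-dependent mesoderm genes, 3 were at −1 or less, led by *Mesp1* (−4.18) and *T* (−3.01), and 1 at 1 or more, *Cdx4* (1.24), while *Msgn1* was at −0.34. The epiblast, nascent mesoderm and primitive streak classes held no cell at E8.5. *Mesp1* and *T* were themselves among the markers that named the nascent mesoderm and primitive streak classes. *T* still had 50.6 CPM on its highest E8.5 plate. The part of the cell mix in these ratios was not tested.

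Across the 19 plates the genes whose log2(CPM + 1) was most like that of *Spry2* were *4933415A04Rik* (Pearson r = 0.953), *Skil* (0.951), *Hk2* (0.950), *Hsf2* (0.947) and *Acsl4* (0.945). The same measure was 0.894 for *Spred1*, 0.822 for *Spry4*, 0.511 for *Dusp6* and −0.472 for *Spry1*. These plates differ in stage, depth and cell mix, whose part in these values was not tested. Over the 11 E7.5 plates alone the 5 most like were *Plxna3* (0.903), *Sall3* (0.888), *Tmod2* (0.888), *Abi2* (0.882) and *Prickle1* (0.876), none of which was among the first 5. Of the members, *Etv5* (0.748) was then most like *Spry2*, and *Spred1* was at 0.544.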

How the data were processed

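RNA of single cells was captured on oligo-dT beads and amplified by Smart-seq2, and the authors aligned 75-base reads with HISAT2 2.1.0 to GRCm38 and counted them per gene with featureCounts (Ensembl release 87). Whether strand or multimapping reads were used is not given in the sources used here. The deposited values are raw counts per gene and well. The filter asked for 100000 reads or more per cell, mitochondrial reads up to 10% and ribosomal protein reads up to 20%. It left 945 E7.5 and 689 E8.5 cells, with 175 wells failing on reads and 15 on a limit only. CPM is the sum of a gene's reads over the sum of all reads. Stage ratios used 1 CPM as pseudocount and genes with 10 CPM in either stage. Shares of cells were read after thinning to 100000 reads per cell, with Clopper-Pearson intervals. Cells were clustered with scanpy 1.11.5 without the members and pathway genes, and classes were named from markers. No doublet caller was run, as each well was sorted as 1 singlet. Sums per E7.5 embryo were tested with edgeR 4.0.16 (R 4.3.3) with the embryo as a block, since a plate named for an embryo gave both classes, and DESeq2 1.42.0 was an alternative. The tests were tried on simulated data first, where the edgeR test missed most of the changed genes. A member that did not pass can therefore not be read as unchanged. The text names all 9 members, up to 2 genes with the highest and 2 with the lowest ratio of each pathway list, and the 5 genes most like *Spry2*. The members and lists were chosen with earlier results of these data known. Alternatives were other filters, scalings, pseudocounts, clusterings and leaving out each plate or embryo.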

Additional observations from a re-analysis of the deposited data

How the results depend on the processing

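Across 11 other filters, scalings, pseudocounts and poolings, the stage log2 ratio of *Spry2* lay between −4.36 and −3.30. No ratio of the 9 members moved by more than the spread between plates. The setting with no minimum CPM is among the 11 but could not move a ratio, since the ratio does not use that minimum. Leaving out each plate in turn gave −4.28 to −3.82 for *Spry2*, −1.95 to −1.54 for *Spred1*, −1.85 to −1.29 for *Spry4*, −1.74 to −1.21 for *Etv5*, −1.83 to −0.63 for *Etv4*, −1.11 to −0.73 for *Spred2*, −0.69 to −0.07 for *Dusp6*, −0.18 to 0.47 for *Dusp4* and 0.87 to 1.17 for *Spry1*. The 4 members at −1 or less became 2 with E7.5 from the lane plates only and 2 within endothelial-like, extraembryonic mesoderm-like or haematoendothelial and endothelial-like cells, and 4 to 6 without 1 plate.

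Within 1 class several ratios moved. *Spry1* was at 2.19 in endothelial-like, 2.24 in erythroid-like, 1.85 in extraembryonic mesoderm-like, 0.092 in myeloid-like and −0.71 in visceral endoderm-like cells. *Spry2* was at −3.09 in erythroid-like cells. *Spry4* was at 1.40 in erythroid-like, −3.10 in myeloid-like and 0.079 in haematoendothelial or endothelial-like cells. *Spred1* was at −0.48 in endothelial-like cells, and *Spred2* at −0.072 in endothelial-like, −0.12 in erythroid-like, 1.48 in myeloid-like and 0.21 in haematoendothelial or endothelial-like cells. In visceral endoderm-like cells *Dusp4* was at −1.78 and *Dusp6* at 1.07. *Etv4* was at 0.50 in haematoendothelial or endothelial-like cells and *Etv5* at 0.60 in erythroid-like cells. The cause was not tested. The share of cells with a *Spry2* read was 89.1% and 31.8% at E7.5 and E8.5 without thinning, and 54.2% and 2.90% when 5 reads per 100000 were asked for.

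In the embryo tests with the embryo as a block, 0.843% of the genes tested were called between streak-like and epiblast-like cells and 0.564% between extraembryonic mesoderm-like and epiblast-like cells (74 genes). With no replicate block these shares were 1.79% and 2.18%, without a low-count filter 0.981% and 1.15%, and with DESeq2 8.23% and 9.39% (1231 genes in each). Leaving out 1 embryo gave 0.533% (78 genes, without embryo 1) to 0.710%, and 0.160% (20 genes, without embryo 2) to 0.407% with 0.249% (36 genes) without embryo 4, from fewer samples. No member of uncertain sign was called: *Dusp4* in extraembryonic mesoderm-like over epiblast-like cells ranged from −0.40 to 1.96 without 1 embryo (−0.22 without embryo 1), and in streak-like over epiblast-like cells *Dusp4* ranged from −0.048 to 0.76, *Dusp6* from −0.27 to 0.015, *Spred2* from −0.15 to 0.13 (0.013 without embryo 2) and *Spry4* from −0.23 to 0.48. With 10 cells per class *Spred2* was at 0.13 and *Spry4* at −0.23. The extraembryonic ectoderm test and the 10-cell setting for extraembryonic mesoderm were not run, since 1 embryo had enough cells of both classes.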
